A study of Mus musculus with 69 samples.

Results

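Voltage-gated calcium channels, voltage-gated sodium channels and the hyperpolarization-activated cyclic nucleotide-gated (HCN) channels were taken as one group of genes, with members picked by symbol: the pore-forming alpha1 subunits of calcium channels (Cacna1), their alpha2delta (Cacna2d), beta (Cacnb) and gamma (Cacng) subunits, the pore-forming alpha (Scn with a final a) and accessory beta (Scn with a final b) subunits of sodium channels, and the HCN genes. The group was chosen with earlier results of these data known. The 41 genes described are among 55964 gene identifiers in the count tables: 10 Cav alpha1, 4 alpha2delta, 4 beta, 8 gamma, 9 Nav alpha, 3 Nav beta and 3 HCN genes. RNA was sequenced from the pituitary, hypothalamus and ovary of female mice on a C57BL/6J background that carried Zeb1 with point mutations in the miR-200a and miR-200b sites of its 3′ UTR on both alleles (200M) or on 1 allele (200H), or that were wild type (WT). All females were taken at proestrus, either as virgins 8 to 12 weeks old (young) or at 28 to 36 weeks after a breeding trial (older). The knock-in came from 2 embryonic stem cell clones and was present in every tissue, and age, breeding history and library protocol differed together between the cohorts, so these cannot be told apart. Of the 69 libraries, each from 1 mouse, every genotype had 4 per tissue and cohort except the young WT pituitary, the older 200M pituitary and the older 200M hypothalamus, which had 3 each.

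The alpha1 and Nav alpha subunits form the voltage-gated pores through which calcium or sodium enters a cell, the alpha2delta and beta subunits bring calcium channels to the membrane and tune them, and several gamma subunits are better known as partners of AMPA receptors. HCN channels open on hyperpolarization and carry a depolarizing current that paces repetitive firing. Endocrine cells of the anterior pituitary are electrically excitable: they fire action potentials, and calcium that enters through voltage-gated channels drives hormone release. ZEB1 is a zinc finger repressor that binds E-box motifs, and the miR-200 family lowers its mRNA.

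The miR-200 family members fall into 2 seed classes, and in wild-type Zeb1 the sites altered by the mutations pair with these seeds. They are shown because the same letters were searched for in the channel genes. Capitals mark the seed, bases 2 to 8, in the RefSeq mature sequences.
miR-200b-3p: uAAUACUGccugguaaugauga
miR-200c-3p: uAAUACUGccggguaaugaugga
miR-429-3p: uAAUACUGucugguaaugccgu
miR-200a-3p: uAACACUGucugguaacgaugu
miR-141-3p: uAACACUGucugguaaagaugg

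A perfect 8-base match to either seed (the reverse complement of the seed followed by A) stood in the longest annotated 3′ UTR of 5 of the 41 channel genes (12.2%), against 1401 of 20996 protein-coding genes (6.67%). The channel genes had longer 3′ UTRs, with a median of 2073 bases against 953.5, so the shares are not matched for length. Matches to the seed without the final A also stood in other channel genes, such as Scn2a, Scn1a, Cacna1b, Cacna1e and Scn8a. They were not counted over all genes. The 5 matches are given with the flanking bases of the GENCODE transcript, the match in capitals. Of these, the site in Scn3b belonged to the miR-200b class and the other 4 to the miR-200a class.
Scn3b: tgtctgtggatCAGTATTAgtcctcgtttt
Cacna1c: attcagcctgcCAGTGTTActaaggaaaac
Cacna2d4: tgccttgtcatCAGTGTTAtgacctccttt
Cacnb4: gtctctcatgaCAGTGTTAcatttttaatg
Cacng7: gcgaggtagcaCAGTGTTAacacacacgga

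A form of the E-box that ZEB1 is known to bind, CACCTG on either strand (CAGGTG on the other), was searched in RefSeq promoters of GRCm38.p6. The stretch ran from 250 bases before the transcript start to 50 after it. The consensus CAGGTR, where R is A or G, also holds CAGGTA, which was not searched. The search covered 42 promoters of 31 channel genes. The motif was present in 7 of the 42, in 6 genes, and in 20.2% of all 32851 promoters. The stretches below show the motif in capitals on the strand of the gene, for Cacna1i, which was called higher in 200M pituitary in both cohorts, and for Scn2b, which was called in no pituitary comparison.
Cacna1i, plus strand, within chr15:80286988-80287287, 236 bases before the start: ataagcgttaggCACCTGggctgctcattc
Scn2b, plus strand, within chr9:45117626-45117925, 126 bases before the start: tttatgccctccCACCTGctttctgaaatc
The other matched promoters belonged to Cacna1c, Cacng5 (2 promoters), Cacng8 and Hcn2. These are letter matches only.

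**Figure D1:**
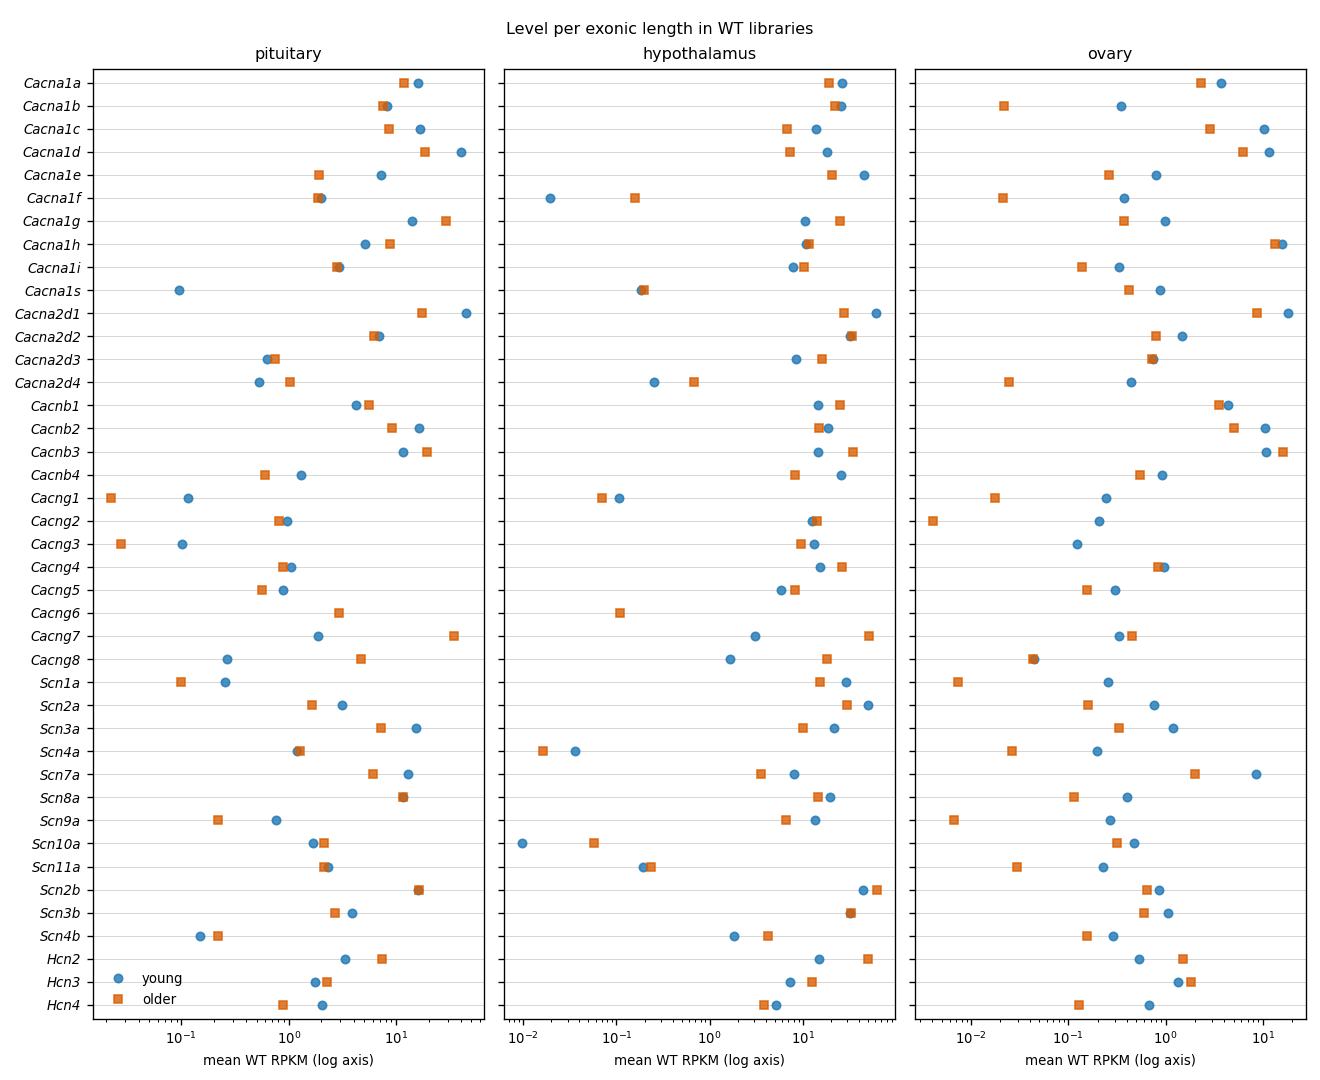
Mean level of each channel gene in the WT libraries of the pituitary, hypothalamus and ovary, as RPKM on a log axis, with young mice as circles and older mice as squares. Genes at 0 are not drawn, and most genes were lowest in the ovary.

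Levels between genes were compared per exonic length, as RPKM, the read count scaled to exon length and library size. In young WT pituitary the highest levels were those of Cacna2d1, an alpha2delta subunit (RPKM 44.3 ± 4.5, SD, n = 3), and Cacna1d, the Cav1.3 L-type pore (39.6 ± 2.79). Their means differed by less than the sum of their SDs. Cacna1c, the Cav1.2 L-type pore (16.7 ± 0.35), Cacnb2 (16.2 ± 0.419), Scn2b (15.9 ± 3.72) and Cacna1a (15.8 ± 2.3) came next, and their means lay closer together than the SDs of Scn2b and Cacna1a. In older WT pituitary the highest were Cacng7 (RPKM 34.2 ± 3.04, SD, n = 4) and the T-type pore Cacna1g (29.1 ± 13.3), followed by Cacnb3 (19.2 ± 2.25), and the mean of Cacna1g was within its SD of both. Cacng7 was only at RPKM 1.86 ± 0.88 in the young libraries, and Cacng6 had no read in any young library of any tissue, so the level of a gene is not compared between the cohorts. The summed mean RPKM of the 41 genes in WT was 278 in young and 256 in older pituitary, 635 and 659 in hypothalamus, and 112 and 70.7 in ovary.

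The total counts per library were 4527753 to 13342430 in the pituitary, 3321845 to 13917738 in the hypothalamus and 6337205 to 14655095 in the ovary. Zeb1 RNA went with the genotype labels in the pituitary: in young mice it was 95.9 to 98.8 CPM (counts scaled to library size) in WT, 127 to 135 in 200H and 133 to 142 in 200M libraries, and in older mice 55.5 to 62.8, 70.3 to 76.3 and 80.8 to 93.2. Zeb1 was not called in the hypothalamus or ovary. The pituitary libraries held the hormone transcripts of their tissue, but the summed CPM of 10 hormone-cell markers was 165000 to 188000 in young WT and 70400 to 98700 in young 200H and 68500 to 88200 in young 200M, and 291000 to 323000, 152000 to 227000 and 163000 to 212000 in the older groups in the same order. Prl, the prolactin transcript, made up most of this fall, at 134000 to 159000 CPM in young WT, 28700 to 62000 in 200H and 39200 to 61500 in 200M, and 169000 to 211000, 58900 to 120000 and 53100 to 72600 in the older groups. Of the 10 markers 2 rose and 4 fell in young 200M against WT, and 2 rose and 3 fell in older mice. Prl, Lhb and Cga fell in both cohorts and Pou1f1 in young mice, whereas Nr5a1, a factor of gonadotropes, rose in both, Tbx19 in young and Pomc in older mice. The growth hormone transcript Gh was not called, with log2 fold changes of 0.10 and 0.00. The part of these cells in the results was not tested. In bulk tissue fewer cells of a type and less RNA per cell cannot be told apart. Of 12 neuronal markers, 4 rose and 2 fell in young 200M against WT and 7 rose and 1 fell in older mice, with sums of 957 to 1010 CPM against 1030 to 1160 and 656 to 752 against 930 to 993, and the part of neurons was not tested. The gene that fell in both cohorts was Gad2, from 65.6 to 70 CPM in young WT to 25.8 to 45.7 in 200M, and Slc17a6 fell in young mice, from 89.5 to 109 to 37.6 to 97 CPM. Gad1 was at or below 0.638 CPM in every pituitary library. Of the 10 hypothalamic neuron markers, 2 were tested in young pituitary and none was called, with sums of 3.26 to 5.84 CPM in WT, 4.08 to 6.91 in 200H and 2.93 to 4.96 in 200M. In older pituitary 9 were in the table, 2 were tested and Oxt rose, from 2.43 to 5.57 CPM in WT to 8.51 to 10.2 in 200M, and the sums were 5.91 to 8.08 in WT, 2.55 to 12.6 in 200H and 12.1 to 15.4 in 200M, without overlap between 200M and WT. Pmch was at 0 in every older pituitary library. The part of these neurons or their axons was not tested. Of the 6 skeletal muscle markers none passed the filter on low counts in either cohort. The share of counts from mitochondrial genes was also higher in every mutant than in every WT pituitary library within a cohort, at 5.11 to 5.31% in young WT, 6.09 to 6.81% in 200H and 6.08 to 7.18% in 200M, and at 0.81 to 1.21%, 1.3 to 1.36% and 1.33 to 1.38% in the older groups, and its part was not tested. The older 200H pituitary replicate 1 stood apart: Oxt was 0.232 CPM there and 2.43 to 10.2 in the other 10 older pituitary libraries, Nkx2-1 was 0 against 2.4 to 5.19, and Pomc was 3750 against 8810 to 24700.

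In the young pituitary, 24 of the 38 channel genes tested were called in 200M against WT at an adjusted p under 0.05 (edgeR quasi-likelihood test, Benjamini-Hochberg over all genes), 21 of them higher and 3 lower. Over all genes tested 21.5% were called, 11.5% higher and 10% lower. Standard errors after ± are the log2 fold change divided by the root of its F statistic. The median log2 fold change was 0.39 over the channel genes and 0.00 over all genes. In the older pituitary 22 of 39 channel genes tested were called, 20 higher and 2 lower, where 21.4% of all genes were called, 11.7% higher and 9.77% lower, and the medians were 0.40 and -0.01. Without 200M replicate 2 the older count was 12. The 2 cohorts shared no libraries. Both comparisons called 17 of the genes, 16 of them higher in both and Scn8a lower in both, and no gene was called in opposite directions. Of these, Cacnb1, Cacng4, Hcn3 and Scn3b lost their call in both cohorts under some alternative processing. Scn8a lost it in young mice, and Scn7a and Scn9a in older mice. Cacng3 and Scn1a are among the 16, with at most 2 and 15 reads in any older WT library. Cacng3 passed the filter on low counts through the 200M libraries in both cohorts, and Scn1a did so in older mice. There these genes enter the counts of higher genes although they were tested only because 200M was high. Neither was tested in older 200H against WT. The young calls that the older comparison did not make were Cacna1a, Cacna1c, Cacna1f, Cacna2d2, Cacnb3, Cacng8 and Scn4a, and the older calls that the young comparison did not make were Cacna1e, Cacna2d1, Cacna2d3, Cacng5 and Cacng6. The test of the difference between the cohorts called 0 of 39 channel genes by edgeR and 0 by DESeq2 (all genes: 0.0273% called by edgeR). At an unadjusted p under 0.05 there were 6 of the 39, and 1257 of 18344 over all genes. Without the filter on low counts the test called 2 channel genes, 1 with a higher and 1 with a lower effect in older mice.

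**Figure D2:**
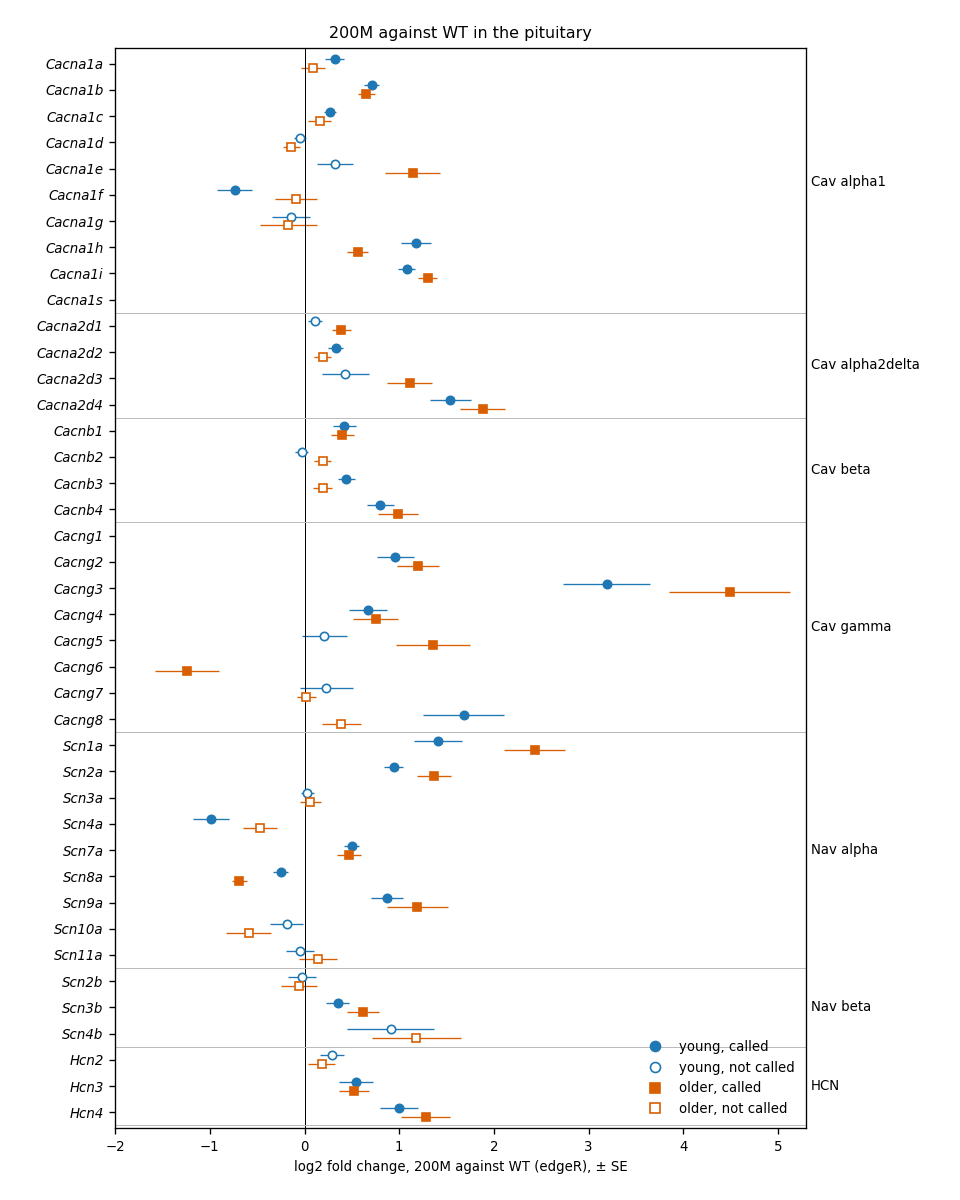
Log2 fold change of 200M against WT in the pituitary with its standard error, one row per channel gene grouped by family; circles are young, squares older, and filled points have an adjusted p under 0.05. Most points lie right of 0, and Scn8a, Scn4a, Cacna1f and Cacng6 are the filled points left of it.

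Among the pore-forming calcium channel genes, 5 of the 9 tested rose and 1 fell in young 200M pituitary, and 4 rose in older. Cacna1i (ENSMUSG00000022416, chr15:80287238-80398279, plus strand, GRCm38) encodes Cav3.3, a low-threshold T-type pore. In young mice its CPM was 30.3, 26.96 and 28.95 in WT, 53.6, 52.8, 59.6 and 56.9 in 200H and 55.6, 66.8, 61.1 and 57.04 in 200M. The older values were 27.6, 28, 30.8 and 24.1 in WT, 40.02, 59.2, 50.9 and 64.2 in 200H and 74.7, 63.7 and 65.2 in 200M. Every mutant library was above every WT library in both cohorts, with log2 fold changes for 200M of 1.08 ± 0.09 (adjusted p = 9.28e-07) and 1.30 ± 0.10 (adjusted p = 5.24e-06). The T-type pore Cacna1h (Cav3.2) was at 49.2, 29.1 and 48 CPM in young WT and 76.5, 109, 103 and 89.96 in young 200M. Its older values were 63.5, 77.7, 72.8 and 72.9 CPM in WT and 103, 91.6 and 124 in 200M, and neither cohort overlapped, with changes of 1.18 ± 0.16 (adjusted p = 7.77e-05) and 0.56 ± 0.11 (adjusted p = 0.00333). The third T-type pore, Cacna1g, was not called in either cohort. Cacna1b (Cav2.2, chr2:24603887-24763152, minus strand), the N-type pore of neurotransmitter release, went from 77.4, 84.4 and 78.7 CPM in young WT to 143, 122, 134 and 119 in 200M. In older mice it went from 68.4, 68.8, 81.9 and 74.7 in WT to 119, 110 and 116 CPM in 200M, again without overlap, with changes of 0.71 ± 0.08 (adjusted p = 1.29e-05) and 0.65 ± 0.09 (adjusted p = 2.71e-04).

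The other pores with a call had it in 1 cohort. Cacna1c was at 250, 260 and 253 CPM in young WT and 308, 319, 286 and 299 in 200M, a change of 0.27 ± 0.06 (adjusted p = 0.00399), and its older groups overlapped (0.16 ± 0.12, adjusted p = 0.385). Cacna1f, the Cav1.4 pore known from photoreceptors, fell from 12.3, 12.02 and 11.8 in WT to 6.63, 9.27, 5.14 and 7.78 CPM in young 200M (-0.74 ± 0.18, adjusted p = 0.00878), while its older value was -0.09. Cacna1e, the R-type Cav2.3 pore, was at 22.2, 32.2, 47.4 and 15.3 CPM in older WT and 62.8, 80.5 and 45.1 in older 200M, with a change of 1.14 ± 0.29 (adjusted p = 0.0156) and groups that overlapped only between WT replicate 3 and 200M replicate 3. The P/Q-type pore Cacna1a changed by 0.32 ± 0.10 (adjusted p = 0.0285) in young mice and was not called in older ones. Cacna1d, the Cav pore with the highest RPKM in young WT pituitary, was not called, and Cacna1s, the skeletal muscle pore, was under the filter in both cohorts, with no read in any older WT library and 0.2565 to 0.851 CPM in older 200M. Cacna1h, Cacna1d, Cacna1a and Cacna1s share exonic positions with Tpsg1, Chdh, Gm16183 and Gm37759. In the unstranded older libraries reads from the shared positions cannot be assigned to one gene of such a pair.

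Of the 4 alpha2delta genes, which act on channel trafficking, 2 rose in young and 3 in older 200M pituitary. Cacna2d4 (chr6:119236526-119352407, plus strand) had the largest change of these. Its CPM was 3.999, 2.13 and 3.01 in young WT, 6.82, 8.08, 7.61 and 7.84 in 200H and 9.02, 10.3, 8.38 and 7.66 in 200M. In older mice it was 5.02, 8.82, 6.49 and 3.28 in WT, 29.8, 21.3, 24.6 and 27.5 in 200H and 21.3, 22.2 and 22.6 in 200M. All mutant libraries were above all WT libraries, with changes for 200M of 1.54 ± 0.22 (adjusted p = 1.22e-04) and 1.88 ± 0.24 (adjusted p = 2.40e-04). Cacna2d2 was called in young mice, from 38.8, 40.4 and 41.2 in WT to 50.7, 49.6, 46.4 and 53.3 CPM in 200M (0.33 ± 0.08, adjusted p = 0.00743). Cacna2d1 was called in older mice, from 147, 119, 152 and 163 in WT to 191, 194 and 188 CPM in 200M (0.39 ± 0.10, adjusted p = 0.0162), and so was Cacna2d3, from 3.76, 3.08, 2.23 and 2.62 in WT to 4.895, 7.31 and 6.85 CPM in 200M (1.11 ± 0.24, adjusted p = 0.00615). In each of these 3 the 200M libraries lay above the WT libraries.

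Of the 4 cytoplasmic beta subunits, 3 rose in young and 2 in older 200M pituitary. Cacnb4 was at 11.2, 13.03 and 9.58 CPM in young WT and 20.96, 19.3, 20.6 and 16.5 in 200M, and at 5.99, 4.45, 4.26 and 6.01 CPM in WT and 11.1, 12.1 and 7.68 in 200M in older mice, with no overlap and changes of 0.80 ± 0.14 (adjusted p = 6.11e-04) and 0.99 ± 0.21 (adjusted p = 0.00597). Cacnb1, the subunit of the skeletal muscle channel, was at 17.6, 15.6 and 17.2 CPM in WT and 25.3, 22.9, 21.5 and 18.9 in 200M, and at 23.6, 22.95, 19.5 and 24.7 CPM in WT and 32.1, 31.5 and 26.4 in 200M in older ones, with changes of 0.42 ± 0.12 (adjusted p = 0.019) and 0.40 ± 0.12 (adjusted p = 0.0334). Cacnb3 was called in young mice, from 34.96, 29.8 and 37.9 in WT to 48.3, 45.3, 46.5 and 44.03 CPM in 200M (0.44 ± 0.09, adjusted p = 0.00267), and Cacnb2 in neither cohort.

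Of the 8 gamma genes 6 were tested in young and 7 in older mice, and 4 rose in each, with 1 lower in older mice. Cacng2, Cacng3, Cacng4 and Cacng8 encode AMPA receptor partners. Cacng3 (chr7:122670492-122769393, plus strand) was close to absent in WT, at 0.308, 0.112 and 0.4304 CPM in young and 0, 0.0856, 0 and 0.219 in older mice. It was at 3.47, 2.73, 2.57 and 1.79 CPM in young 200M and 1.703, 1.795 and 3.95 in older 200M, above every WT library. The fitted changes were 3.19 ± 0.46 (adjusted p = 1.53e-04) and 4.49 ± 0.64 (adjusted p = 4.18e-04), and at these WT counts, of 4 reads or fewer in each library, they depend on the prior count and give no reliable fold. Cacng2 went from 5.54, 3.71 and 6.78 in WT to 12.6, 9.18, 9.85 and 9.44 CPM in 200M in young mice and from 4.04, 3.43, 4.87 and 5.47 in WT to 11.9, 10.8 and 7.48 CPM in 200M in older mice, with changes of 0.96 ± 0.20 (adjusted p = 0.00326) and 1.20 ± 0.22 (adjusted p = 0.00277). Cacng4 went from 3.999, 3.595 and 3.44 in WT to 5.703, 4.96, 5.58 and 7.27 CPM in 200M and from 2.37, 2.57, 3.85 and 3.499 in WT to 4.68, 5.64 and 4.78 CPM in 200M, with changes of 0.67 ± 0.20 (adjusted p = 0.0287) and 0.75 ± 0.24 (adjusted p = 0.0401). The 200M libraries did not overlap WT for these 2 genes. Cacng8 was called in young mice (1.68 ± 0.43, adjusted p = 0.0119). Its WT libraries held 2 to 7 reads (0.215 to 0.786 CPM) and its 200M libraries 10 to 24 (1.28 to 1.76 CPM). Its fold is therefore not reliable, and the call did not hold in every alternative. It passed the filter on low counts through the 200M libraries, as Cacng3 did in both cohorts. Cacng5 was called in older mice, from 0.557, 2.31, 2.64 and 3.06 in WT to 3.41, 5.77 and 7.48 CPM in 200M (1.36 ± 0.39, adjusted p = 0.0271). Cacng6 fell in older 200M pituitary, from 4.88, 8.05, 4.05 and 6.12 in WT to 1.06, 2.95 and 3.32 CPM in 200M (-1.24 ± 0.34, adjusted p = 0.0211), without overlap.

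Of the 9 Nav alpha genes 4 rose and 2 fell in young 200M pituitary, and 4 rose and 1 fell in older. Scn2a (Nav1.2, chr2:65620771-65767447, plus strand), a main sodium pore of unmyelinated axons, was at 28.2, 31.3 and 25.7 CPM in young WT, 49.9, 41.6, 46.4 and 47.4 in 200H and 60.3, 48.2, 57.5 and 49.4 in 200M. The older values were 17.6, 11.2, 13.8 and 17.4 in WT, 24.9, 24.2, 25.4 and 27.7 in 200H and 30.2, 40.8 and 44.9 in 200M. All mutant libraries stood above all WT libraries, and the 200M changes were 0.94 ± 0.10 (adjusted p = 1.27e-05) and 1.37 ± 0.18 (adjusted p = 2.12e-04). Scn1a (Nav1.1) was at 1.74, 2.58 and 2.15 CPM in young WT and 6.32, 6.78, 5.22 and 4.21 in young 200M, and at 0.836, 1.28, 0.811 and 0.437 CPM in WT and 4.04, 5.13 and 4.98 in 200M in older mice. Its changes were 1.41 ± 0.25 (adjusted p = 8.41e-04) and 2.43 ± 0.32 (adjusted p = 2.60e-04), with no overlap. In older mice its WT libraries held 4 to 15 reads, so the older fold is imprecise. There Scn1a passed the filter on low counts through the 200M libraries, and it was not tested in older 200H against WT. Scn9a (Nav1.7, known from pain-sensing neurons) was at 8.72, 6.85 and 7.21 CPM in WT and 15.03, 10.3, 15.7 and 13.9 in 200M and at 1.67, 3.08, 1.82 and 2.296 CPM in WT and 2.77, 7.05 and 5.61 in 200M in older mice, with changes of 0.87 ± 0.17 (adjusted p = 0.00188) and 1.19 ± 0.32 (adjusted p = 0.02). The older groups overlapped through 200M replicate 1, at 2.77 CPM.

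Scn7a, a sodium-sensing relative without typical voltage gating, was at 101, 96.6 and 84.1 CPM in WT and 137, 144, 118 and 127 in 200M, and at 47.8, 35.5, 52.7 and 40.5 CPM in WT and 58.96, 62.5 and 59.6 in 200M in older mice, with changes of 0.50 ± 0.08 (adjusted p = 5.67e-04) and 0.47 ± 0.13 (adjusted p = 0.0199) and no overlap. In the older 200H libraries Scn7a was 1.86, 49.8, 47.1 and 45.96 CPM, and the low value belonged to replicate 1, the library that stood apart.

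The genes that fell included Scn8a (Nav1.6, chr15:100869858-101045938, plus strand), the main sodium pore of nodes of Ranvier and axon initial segments. It was at 139, 147 and 140 CPM in young WT, 115, 107, 134 and 111 in 200H and 111, 114, 113 and 136 in 200M. In older mice it was at 129, 145, 140 and 154 in WT, 103, 103, 83.8 and 115 in 200H and 87.3, 88.2 and 88.1 in 200M. Every mutant library was below every WT library, with changes for 200M of -0.25 ± 0.08 (adjusted p = 0.0276) and -0.69 ± 0.08 (adjusted p = 1.29e-04). Scn4a, the skeletal muscle pore Nav1.4 (chr11:106318592-106353288, minus strand), fell from 7.79, 8.31 and 7.64 in WT to 4.701, 3.14, 4.19 and 3.57 CPM in young 200M (-0.99 ± 0.19, adjusted p = 0.00142), and in older mice it was at 8.92, 8.48, 7.703 and 8.64 CPM in WT and 5.32, 5.77 and 7.27 in 200M (-0.47 ± 0.18, adjusted p = 0.0779), with every 200M library below WT but no call. The other low Nav alpha genes, Scn10a and Scn11a, were not called. Neither was Scn3a. Of the accessory beta genes, Scn3b rose in both cohorts, from 17.7, 15.6 and 19.3 in WT to 25.1, 20.3, 20.6 and 22.97 CPM in 200M (0.35 ± 0.12, adjusted p = 0.0424) and from 13.5, 13.6, 12.8 and 8.53 in WT to 18.7, 20.1 and 16.6 CPM in 200M (0.62 ± 0.17, adjusted p = 0.024).

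Of the 3 HCN genes 2 rose in each cohort and Hcn2 was not called. Hcn4, the main HCN gene of the sinoatrial pacemaker, was at 12.8, 7.75 and 16.8 CPM in young WT and 21.7, 23.9, 22.4 and 31.9 in young 200M, and at 3.48, 6.17, 7.703 and 4.05 CPM in WT and 11.1, 10.9 and 16.6 in 200M in older mice, with no overlap and changes of 1.00 ± 0.20 (adjusted p = 0.00236) and 1.28 ± 0.26 (adjusted p = 0.00446). Hcn3 went from 6.05, 7.19 and 7.86 in WT to 11.7, 8.11, 8.89 and 12 CPM in 200M in young mice and from 9.47, 8.91, 8.31 and 9.62 in WT to 10.6, 13.6 and 14.95 CPM in 200M in older mice, with changes of 0.54 ± 0.18 (adjusted p = 0.0469) and 0.52 ± 0.16 (adjusted p = 0.0344) and no overlap. Hcn3, Scn9a, Cacnb4 and Cacng2 share exonic positions with Pklr, Gm13629, A430018G15Rik and A730060N03Rik, and Cacna2d2 and Cacnb2 with Gm17141 and Gm10849. In the unstranded older libraries reads from these positions cannot be assigned to one gene. Cacng8 shares positions with Gm23450 on the same strand, so there the limit holds in both cohorts.

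**Figure D3:**
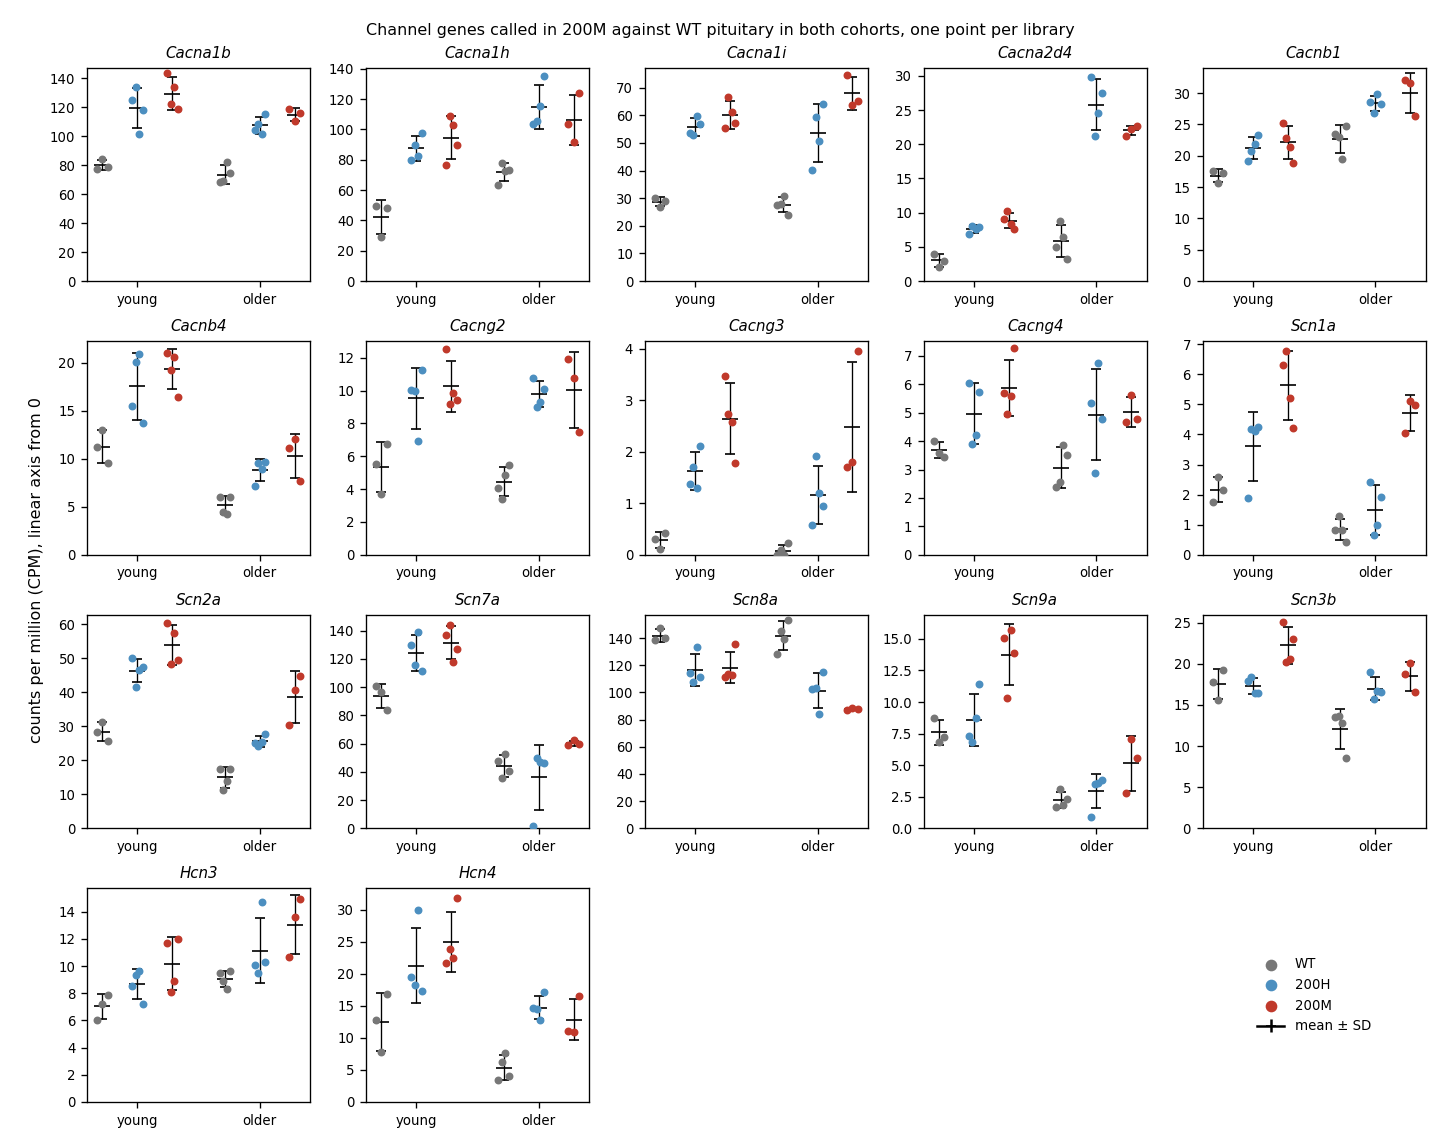
CPM in every pituitary library for the 17 channel genes called in 200M against WT in both cohorts. Each panel has a linear axis from 0 and shows young then older mice, each in the order WT, 200H, 200M, with the mean and SD. The 200M points lie above the WT points in most panels and below them for Scn8a.

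With 1 mutated allele fewer calls were made. In young 200H pituitary 14 of 38 channel genes were called against WT, 12 higher and 2 lower, where 12.3% of all genes were called, 6.56% higher and 5.72% lower. The higher genes, with their log2 fold changes, were Cacna1b (0.59), Cacna1h (1.06), Cacna1i (0.97), Cacna2d4 (1.32), Cacnb3 (0.43), Cacnb4 (0.65), Cacng2 (0.84), Cacng3 (2.46), Cacng8 (1.67), Hcn4 (0.78), Scn2a (0.72) and Scn7a (0.41), and the lower were Scn4a (-0.59) and Scn8a (-0.27). Of these, Cacng3 and Cacng8 had at most 4 and 7 reads in any WT library, so their folds are not reliable. Both passed the filter on low counts through the 200H libraries. The count of called genes fell to 7, all higher, when WT replicate 1 was left out, and to 8 when 200H replicate 2 was. It fell to 9 when 200H replicate 4 or either of the other WT libraries was left out. In older 200H pituitary 11 of 37 were called, 10 higher, against 12.2% of all genes (7.09% higher and 5.14% lower), and the count was also 11 without 200H replicate 1. These were Cacna1b (0.55), Cacna1e (1.61), Cacna1h (0.68), Cacna1i (0.97), Cacna2d3 (0.77), Cacna2d4 (2.11), Cacnb4 (0.76), Cacng2 (1.16), Hcn4 (1.5) and Scn2a (0.78), with Scn8a lower (-0.48).

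200M and 200H pituitary were compared directly, and edgeR called 0 channel genes in either cohort (0.0383% of all genes in young and 0.121% in older mice). At an unadjusted p under 0.05 there were 8 of 38 channel genes in young and 7 of 39 in older mice. Over all genes these were 1081 of 18271 and 1575 of 14862. DESeq2 called 0 and 2 channel genes, both higher in 200M. Leaving out 200H replicate 2 gave 4 calls in older mice, 2 in each direction.

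In the hypothalamus, where the summed level per length was higher than in pituitary, edgeR called 0 channel genes in all 6 comparisons. In young mice the genes called among all tested were 0.02% for 200M against WT, 0.0202% for 200H against WT and 0% for 200M against 200H. In the same order 1, 2 and 1 of 33 channel genes were at an unadjusted p under 0.05. Over all genes these were 847 of 14988, 585 of 14877 and 682 of 14812. DESeq2 called 0 channel genes in each. In older mice the shares of all genes called by edgeR were 0.00622%, 0% and 0%. At an unadjusted p under 0.05 there were 15, 2 and 16 of 37 channel genes. Over all genes these were 2904 of 16067, 445 of 15910 and 3144 of 16156. DESeq2 called 6, 0 and 6 channel genes, all of them lower in 200M, and its share over all genes is not given. The median log2 fold change of the channel genes for 200M against WT was -0.22 in older hypothalamus, against 0.02 over all genes, and it was -0.08 with a trend on gene length removed. edgeR called 3 without WT replicate 1 and 3 without 200M replicate 1, all lower. The genes with the smallest p there, chosen after their values were seen, were Scn3a at -0.49 ± 0.10 (adjusted p = 0.101) and Cacna2d1 at -0.40 ± 0.10 (adjusted p = 0.112). Scn8a, lowered in pituitary, was at -0.14 in young and -0.21 in older hypothalamus.

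In the ovary 1 of 36 channel genes was called in young 200M against WT, where 2.58% of all genes were called, 0.878% higher and 1.7% lower. This was Cacna1c, at 170, 140, 172 and 148 CPM in WT, 130, 155, 123 and 146 in 200H and 126, 139, 106 and 115 in 200M. The 200M libraries were below the WT ones, with a change of -0.37 ± 0.09 (adjusted p = 0.044). The call was lost without any 1 of 6 of the 8 libraries, and 2 channel genes were called when 200M replicate 2 was left out. In the other ovary comparisons edgeR called 0 channel genes. Of all genes it called 0.0051% in young 200H against WT and 0% in young 200M against 200H. In older mice it called 2.71% in 200M against WT, 0% in 200H against WT and 1.61% in 200M against 200H. At an unadjusted p under 0.05 young 200H against WT had 4 of 36 channel genes, with 1384 of 19621 over all genes. Young 200M against 200H had 1 of 36, with 648 of 19259. Older 200M against WT had 3 of 26, with 2944 of 17792. Older 200H against WT had 3 of 27, with 1160 of 17605, and older 200M against 200H had 3 of 25, with 2320 of 17855. DESeq2 called 1 channel gene in older 200M against WT and 0 in the other 4.

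**Figure D4:**
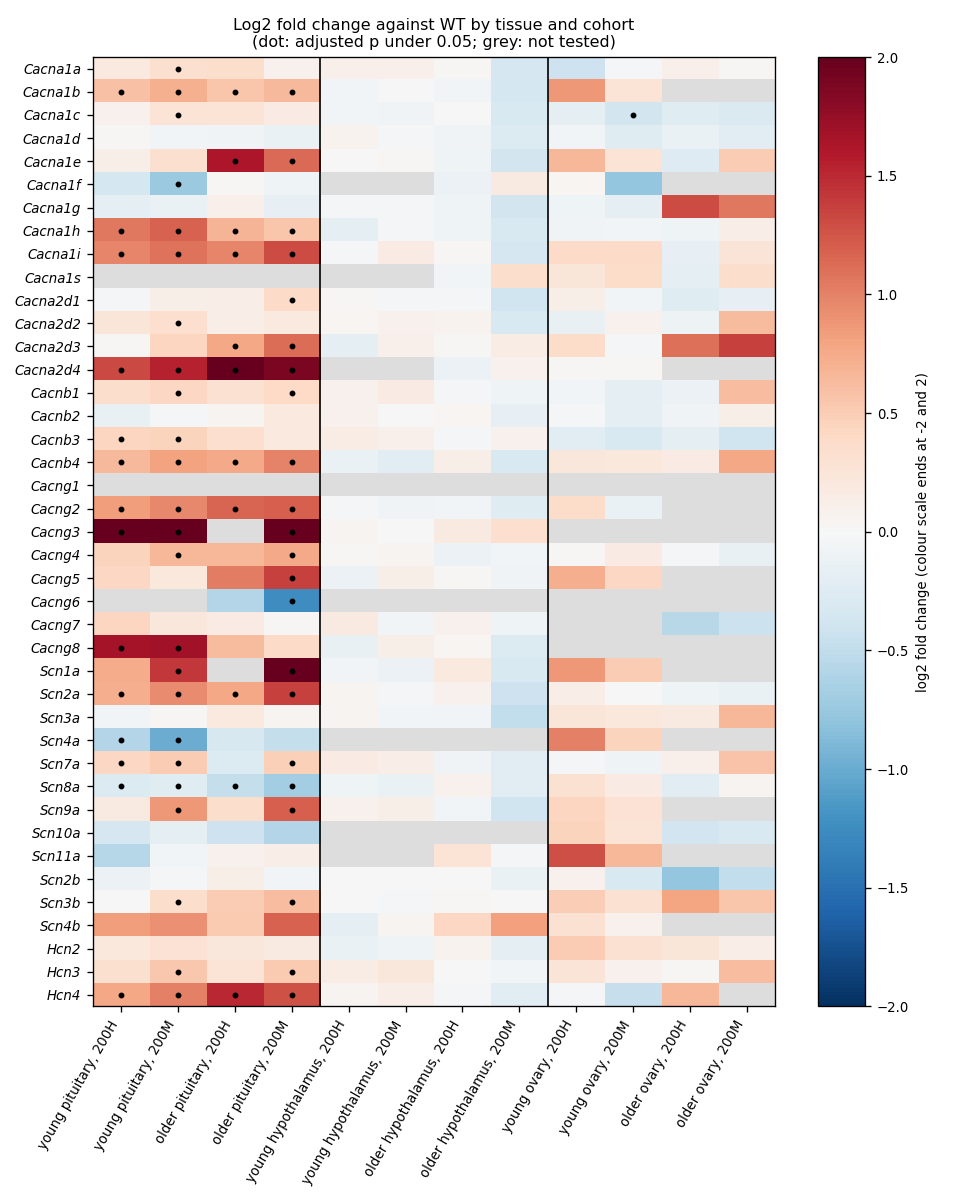
Log2 fold change against WT for each channel gene (rows) in the 12 comparisons of 200H or 200M with WT (columns, pituitary then hypothalamus then ovary). Red is higher and blue lower than WT, dots have an adjusted p under 0.05 and grey cells were not tested. All dots but Cacna1c in young ovary stand in the pituitary columns.

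The difference in the 200M effect between tissues was tested as an interaction. Against young hypothalamus the young pituitary effect differed for 13 of 38 channel genes, 12 of them more positive in the pituitary, where 10.5% of all genes differed, 6.64% more positive and 3.88% more negative. Against young ovary it differed for 9 of 39, all more positive in the pituitary (10.1% of all genes, 5.68% more positive and 4.45% more negative). In older mice 23 of 40 differed from hypothalamus, 22 of them more positive in the pituitary (17.5% of all genes, 10.4% more positive and 7.08% more negative), and the negative hypothalamic values given above enter that difference. Only 2 of 40 differed from older ovary (5.77% of all genes, 3.29% more positive and 2.48% more negative): Scn2a and Cacna1s. Cacna1s was under the filter within the older pituitary, with 0 reads in every WT library and 2 to 4 in 200M. It entered this test and the one against older hypothalamus through the other tissue's counts, so its differences are not reliable. Cacng3, close to absent in WT pituitary, is among the more positive genes of the other tests. The pituitary and ovary of older mice were counted with different programs. The count against older ovary was 1 without any 1 of the 3 pituitary 200M libraries or WT replicate 2 of the ovary, and 4 without 200M replicate 3 or 4 of the ovary.

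Of 40 genes whose products bind, traffic or modulate these channels, 35 were tested in young 200M against WT pituitary, of which 12 rose and 2 fell (all genes: 11.5% higher and 10% lower), and 34 in older pituitary, of which 15 rose and 1 fell (all genes: 11.7% and 9.77%). Their median log2 fold changes were 0.24 and 0.38. Stac2, an adaptor of L-type channels, had changes of 1.39 ± 0.20 (adjusted p = 1.51e-04) and 1.92 ± 0.18 (adjusted p = 1.64e-05). Ncs1, a neuronal calcium sensor, had 0.75 ± 0.17 (adjusted p = 0.00535) and 1.11 ± 0.14 (adjusted p = 2.15e-04). Fgf13 and Fgf14, which bind sodium channel tails, had 0.72 and 0.50 in young and 0.59 and 0.93 in older mice, all called. The sodium leak channel Nalcn and its partner Unc80 rose by 0.48 and 0.34 in young and 0.60 and 0.48 in older mice. Rem2, a small GTPase that inhibits calcium channels, fell in both cohorts, with changes of -0.95 ± 0.13 (adjusted p = 1.38e-04) and -1.11 ± 0.23 (adjusted p = 0.0055). Kcne2, a small accessory subunit, also fell in young mice (-1.78 ± 0.35, adjusted p = 0.00187). In 200H pituitary 7 of 36 were called in young and 12 of 35 in older mice, where 12.3% and 12.2% of all genes were called. In the hypothalamus edgeR called 0 in each of the 6 comparisons, with 1 to 14 at an unadjusted p under 0.05, and DESeq2 was not run on this list. The 14 were in older 200M against WT, where 2904 of 16067 over all genes were under that p. In the ovary 3 of 33 were called in young and 3 of 31 in older 200M against WT, where 2.58% and 2.71% of all genes were called.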

How the data were processed

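The 18 deposited tables held raw counts per gene, which the authors made with STAR 2.7.1a on mm10. Reads of older pituitary and hypothalamus were counted without strand by HTSeq 0.9.1 (Ensembl annotation), and those of older ovary (without strand) and of all young tissues (by strand) by featureCounts (GENCODE basic annotation). Young libraries were rRNA-depleted, stranded and paired-end, and older ones poly(A)-selected, unstranded and single-end. Counts of 135 columns were used, and 141 per-sample columns were not. These were normalized values and 3 WT columns under a repeated header in 1 young pituitary table. The tables also hold the fold changes and p-values of the authors' DESeq2 comparisons, which were not used. 66 libraries stood in 2 tables with identical counts and were used once. One young WT pituitary column could be tied to its group only.

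Pairs of genotypes were compared within tissue and cohort by edgeR 4.0.16 (R 4.3.3; filterByExpr, TMM, quasi-likelihood F test), with Benjamini-Hochberg adjustment over all genes tested and calls at 0.05. Standard errors are the log2 fold change over the root of F. Tissue and cohort differences of the 200M effect were interaction terms. CPM used the TMM factors computed within each tissue and cohort, and RPKM used GENCODE M21 exonic lengths. Alternatives were DESeq2 1.42.0, RLE factors, no filter, a replicate block, a length trend removed by lowess (span 0.3) and each library left out. The fits were tested on simulated data. Named genes were every member called in a comparison, with library values for those called in 200M against WT pituitary in both cohorts and, of those called in 1 cohort, for the 5 of smallest adjusted p. Some channel genes and 1 promoter are not reported here and enter no count of channel genes. The members and lists were chosen with earlier results of these data known. Replicates of a group are different mice, and the total counts per library set the precision of low genes.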

Additional observations from a re-analysis of the deposited data

Results flagged for a closer look

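In groups of 4, a library whose gap to its nearest neighbour takes up most of the group range stood out in 7 of 88 groups, and chance flags about 1 in 20 groups. In young pituitary these were Hcn4 in 200H replicate 3 (29.9 CPM, the others 17.4 to 19.5), Scn1a in 200H replicate 1 (1.9, the others 4.11 to 4.24) and Scn8a in 200M replicate 4 (136, the others 111 to 114). In older pituitary they were Hcn3 in 200H replicate 3 (14.7, the others 9.52 to 10.3), Scn3b in WT replicate 4 (8.53, the others 12.8 to 13.6), Scn7a in 200H replicate 1 (1.86, the others 46 to 49.8) and Scn9a in the same library (0.928, the others 3.53 to 3.82). That last library is the one with low Oxt, Nkx2-1 and Pomc. Its removal moved the older 200H log2 fold change of Scn7a from -0.28 to 0.13 and of Scn9a from 0.35 to 0.66, and neither was called.

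The 200M effect differed between tissues by the interaction test for the genes below, given as the log2 difference, pituitary effect minus the other tissue's. Against young hypothalamus it was 0.71 for Cacna1b, 0.34 for Cacna1c, -3.03 for Cacna1f, 1.22 for Cacna1h, 0.92 for Cacna1i, 1.04 for Cacnb4, 1.03 for Cacng2, 3.19 for Cacng3, 0.60 for Cacng4, 0.87 for Hcn4, 1.55 for Scn1a, 0.97 for Scn2a and 0.75 for Scn9a. Cacna1f had at most 1.16 CPM in any young hypothalamus library, so its fitted difference of -3.03 rests on very few reads. Against young ovary it was 0.64 for Cacna1c, 1.25 for Cacna1h, 0.68 for Cacna1i, 0.60 for Cacnb1, 0.74 for Cacnb3, 3.23 for Cacng3, 1.45 for Hcn4, 0.94 for Scn2a and 0.60 for Scn7a.

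Against older hypothalamus the difference was 1.00 for Cacna1b, 1.52 for Cacna1e, 0.87 for Cacna1h, 1.65 for Cacna1i, 4.95 for Cacna1s, 0.80 for Cacna2d1, 0.49 for Cacna2d2, 0.97 for Cacna2d3, 1.81 for Cacna2d4, 0.36 for Cacnb2, 1.30 for Cacnb4, 1.45 for Cacng2, 4.20 for Cacng3, 0.83 for Cacng4, 1.43 for Cacng5, 0.57 for Hcn3, 1.49 for Hcn4, 2.73 for Scn1a, 1.80 for Scn2a, 0.56 for Scn3a, 0.62 for Scn3b, -0.48 for Scn8a and 1.60 for Scn9a. Against older ovary it was 5.15 for Cacna1s and 1.53 for Scn2a. Cacna1s had no read in any older WT pituitary library and 0.2565 to 0.851 CPM in older 200M, so its fitted differences depend on the prior count and are no bound, and the same holds for Cacng3.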

How the results depend on the processing

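None of the 119 log2 fold changes of called channel genes turned direction in the alternatives, where 1517 of 1746 recomputed values kept their call and 229 lost it. In 200M against WT pituitary 15 of 24 young and 12 of 22 older calls held in all 12 alternatives. The young calls lost in some alternative were Cacna1a, Cacna1c, Cacna1f, Cacnb1, Cacng4, Cacng8, Hcn3, Scn3b and Scn8a. The older ones were Cacna1e, Cacna2d1, Cacnb1, Cacng4, Cacng5, Cacng6, Hcn3, Scn3b, Scn7a and Scn9a. Leaving out 1 library gave 18 to 22 calls in young 200M pituitary, 12 to 23 in older 200M (12 without 200M replicate 2), 7 to 13 in young 200H, 9 to 13 in older 200H, 0 to 4 in older 200M against 200H (4 without 200H replicate 2), 0 to 3 in older 200M hypothalamus (3 without WT replicate 1 or 200M replicate 1), 0 to 2 in young 200M ovary, and 1 to 4 in the older pituitary to ovary difference (1 without any 1 of the 3 pituitary 200M libraries or ovary WT replicate 2, 4 without ovary 200M replicate 3 or 4). Without the filter on low counts 200M against 200H pituitary had 1 call in young and 4 in older mice, older 200H pituitary had 17 against WT, older 200M hypothalamus had 10 against WT and 12 against 200H, older 200H hypothalamus had 1 against WT, and the cohort difference had 2. DESeq2 gave 2 in older 200M against 200H pituitary, 6 in older 200M hypothalamus against WT and 6 against 200H, and 1 in older 200M ovary. The shares of all genes called in these alternatives are not given, so these counts of channel genes cannot be set against them. In young 200M ovary the call was lost (0) with the replicate block and with the length trend removed. The replicate block also left 1 of 9 calls in the young pituitary to ovary difference and 0 of 2 in the older one. Same-numbered libraries did not deviate together in every pair, either between genotypes of 1 tissue or between tissues of 1 genotype and cohort, where 6 of 65 same-numbered pairs correlated over 0.1 (-0.118 to 0.245) and every library matched its own number best in 1 of 18 sets. The numbers were therefore not taken to pair libraries. Whether tissues came from the same mice is not given in the labels. The cause of these changes was not tested. Low counts limit Cacng3, Cacna1s, Cacna1f in hypothalamus, Cacng6, Cacng8 in young pituitary and Scn1a in older pituitary.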

Other observations

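A few channel genes varied strongly within groups. Their naming here was chosen after their values were seen. In young pituitary the 200H replicate 3 had the lowest value of all 11 libraries for Cacna1e (48.5 CPM), Cacna1g (42.8) and Scn2b (41.5), whose other 10 libraries lay between 74.2 and 158, 76.7 and 164, and 59.8 and 93.8 CPM. In older pituitary the WT replicate 4 was lowest for the same 3 genes, at 15.3, 104 and 47.9 CPM, with the other 10 libraries at 22.2 to 104, 130 to 361 and 56.8 to 99.6 CPM.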
